A study of Arabidopsis thaliana with 2 samples.

Results

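Aquaporins are membrane channels that carry water and small uncharged solutes, and their transcripts were followed in mature Arabidopsis thaliana ovules. The members were the 34 rows of the deposited expression table whose identifier is a listed aquaporin locus, out of 33557 identifiers with values. They comprise 5 PIP1, 8 PIP2, 10 TIP, 8 NIP and 3 SIP genes, and all 34 were found. Another gene of the family, NIP3-1 (AT1G31885), was not on the list and stood at 0 in both libraries. Gene names are given in their hyphenated form, so that PIP2-1 is the gene listed in RefSeq as PIP2A with the synonym PIP2;1.

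RNA was sequenced from ovules of 2 genotypes with 1 library each, so no difference below has a replicate check. The library labelled wild-type came from unpollinated ovules of the male-sterile line ms1, used in its place, and the other library came from myb98 ovules. MYB98 is a MYB transcription factor of the synergids, the cells beside the egg that attract the pollen tube. Per the labels' protocols, stage 12 flowers were emasculated and ovules of about 50 pistils were dissected by hand 36 hours later, from plants grown in 16 h light and 8 h dark at 22 °C. The sources used here do not give the accession of either line, the myb98 allele or the harvest hour. Any difference between ms1 plants and myb98 plants other than MYB98 itself cannot be told apart from the genotype.

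Levels are in FPKM (fragments counted per kilobase of a transcript and adjusted for library size), so levels of different genes can be set side by side within a library. A gene is called expressed at 1 FPKM or more in either library, which 16303 genes reached. By estimate the libraries held about 47900000 (wild-type) and 41900000 (myb98) fragments. MYB98 itself had 1.35 FPKM in wild-type and 0.474 FPKM in myb98 ovules. The 7 ovule and integument identity genes examined were all expressed, with a summed 265 and 259 FPKM. Of 7 pollen, 4 tapetum and 6 embryo or seed storage genes, 1, 0 and 1 were expressed. These were the pollen tube kinase gene ANX1 at 1.28 and 1.26 FPKM and the endosperm gene AGL62 at 0.900 and 1.32 FPKM.

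Each aquaporin is a bundle of membrane-spanning helices with a pair of short loops that dip into the pore. Both loops carry a conserved asparagine, proline and alanine, the NPA box, where water passes in single file. PIPs lie mainly in the plasma membrane and TIPs in the vacuolar membrane. NIPs include channels for boric acid and other metalloids, and SIPs are found in the endoplasmic reticulum. PIP1 and PIP2 proteins assemble into mixed tetramers, and PIP1 proteins often need a PIP2 partner to reach the plasma membrane. In ovules and young seeds aquaporins are studied for the water supply of growing tissues.

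The coding DNA of the first NPA box is shown for the most abundant member of each subfamily in the wild-type library, for the 3 SIP genes, and for PIP2-1, PIP2-2 and PIP2-3, which differed most among the PIPs. Each stretch is 39 bases of the coding strand, read from the RefSeq TAIR10.1 genome, with the codons of the box in capitals.
PIP1-2: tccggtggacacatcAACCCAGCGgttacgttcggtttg
PIP2-7: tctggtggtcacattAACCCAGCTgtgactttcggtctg
PIP2-1: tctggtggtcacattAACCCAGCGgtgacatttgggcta
PIP2-2: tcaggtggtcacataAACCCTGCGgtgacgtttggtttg
PIP2-3: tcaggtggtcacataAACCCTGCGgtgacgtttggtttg
TIP2-1: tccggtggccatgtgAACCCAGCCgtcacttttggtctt
NIP1-2: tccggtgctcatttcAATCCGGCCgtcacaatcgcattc
SIP1-1: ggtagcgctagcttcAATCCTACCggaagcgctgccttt
SIP1-2: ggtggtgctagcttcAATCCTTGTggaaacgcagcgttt
SIP2-1: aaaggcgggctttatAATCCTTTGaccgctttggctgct

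The box spelled asparagine, proline and alanine in all 5 PIP1, 8 PIP2 and 10 TIP genes at both loops. In the SIPs the last codon of the first box differed from alanine in each gene, coding for threonine in SIP1-1, cysteine in SIP1-2 and leucine in SIP2-1. Their second box was standard in all 3. Among the 8 NIPs, 6 had the standard first box, and NIP5-1 and NIP7-1 had serine in place of alanine. The second box was standard in 4 of the 8 NIPs, with glycine in place of alanine in NIP1-1 and NIP1-2 and valine in NIP5-1 and NIP6-1. The windows of PIP2-2 and PIP2-3 were identical (0 of 39 bases differed), and that of PIP2-1 differed from them at 7 bases. All 13 PIP genes had 4 exons in their longest transcript, whereas TIP genes had 1 to 3, NIP genes 3 to 5 and SIP genes 3. The longest transcript is not always the coding form. The coding sequences of SIP2-1 and NIP2-1 span 4 exons and that of NIP1-1 spans 5, more than their longest transcripts have.

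Mature ovules expressed 20 of the 34 aquaporin genes, and the plasma membrane subfamilies held most of the transcript. Expressed were 5 of 5 PIP1, 7 of 8 PIP2, 4 of 10 TIP, 1 of 8 NIP and 3 of 3 SIP genes. For comparison, 48.6% of all identifiers with values were expressed. Aquaporin transcripts summed to 802 FPKM in wild-type and 687 FPKM in myb98 ovules, or 0.287% and 0.253% of all FPKM. PIP1 and PIP2 together made up 84.0% of the aquaporin FPKM in wild-type and 83.0% in myb98 ovules.

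**Figure D1:**
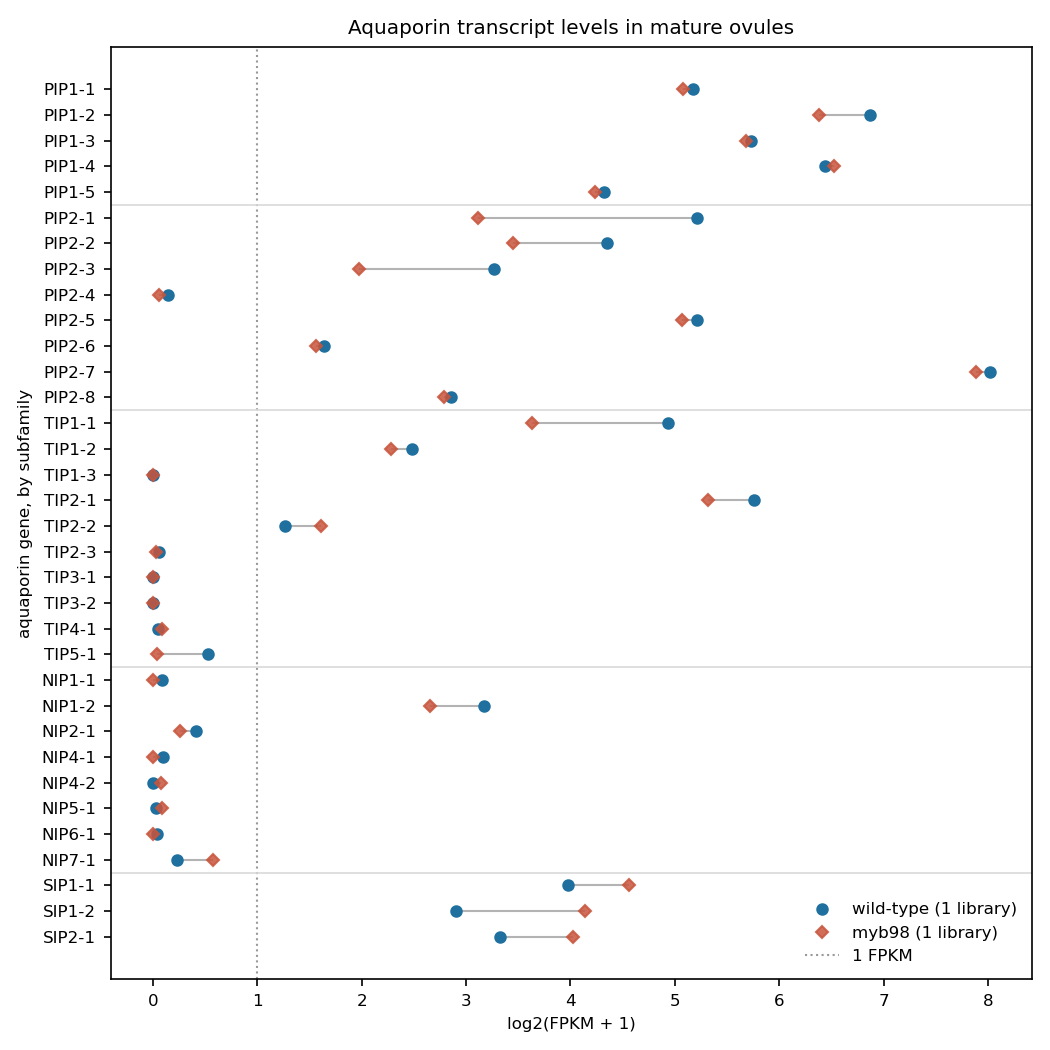
Level of each of the 34 aquaporin genes as log2(FPKM + 1), with a circle for the wild-type library and a diamond for the myb98 library, grouped by subfamily. The dotted line marks 1 FPKM, which 20 genes reached in either library, and PIP2-7 stands at the right with 258 and 235 FPKM.

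PIP2-7 (AT4G35100, chromosome 4, 16708361 to 16710407, plus strand, TAIR10.1), a plasma membrane water channel, was the most abundant aquaporin in both libraries. It had 258 FPKM in the wild-type and 235 FPKM in the myb98 library, and supplied 32.2% and 34.2% of the aquaporin FPKM. Among all 33557 identifiers it ranked at position 41 and position 110. Its closest relative PIP2-8 (AT2G16850), with 84.6% identical coding sequence, had 6.26 and 5.90 FPKM. PIP2-7 was thus 41.2 times as abundant as PIP2-8 in the wild-type library.

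PIP1-2 and PIP1-4 followed. PIP1-2 (AT2G45960), which conducts water and carbon dioxide, had 116 FPKM in the wild-type and 82.2 FPKM in the myb98 library. PIP1-4 (AT4G00430), reported to carry hydrogen peroxide as well, had 85.5 and 90.8 FPKM. The order of these genes thus differed between the libraries, with a PIP1-4 to PIP1-2 ratio of 0.739 in the wild-type and 1.10 in the myb98 library. With 1 library each, no spread is at hand to say whether this order differs. PIP2-7, PIP1-2 and PIP1-4 together held 57.3% of the aquaporin FPKM in the wild-type and 59.4% in the myb98 library.

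The remaining PIP1 genes were 1.03-fold to 1.07-fold lower in the myb98 library. PIP1-3 (AT1G01620) had 51.9 FPKM in the wild-type and 50.2 FPKM in the myb98 library. PIP1-1 (AT3G61430) had 35.1 and 32.8 FPKM, and PIP1-5 (AT4G23400) had 19.0 and 17.8 FPKM. Summed over 5 genes, PIP1 stood at 307 and 274 FPKM, which was 38.3% and 39.9% of the family. PIP1-1 and PIP1-2 share 87.6% of their coding bases and a longest exact run of 41 nt.

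The PIP2 genes were the largest subfamily by summed level, with 367 FPKM (45.7%) in the wild-type and 296 FPKM (43.1%) in the myb98 library. The PIP2 to PIP1 ratio was 1.19 in the wild-type and 1.08 in the myb98 library. PIP2-5 (AT3G54820), known as a member induced by drought, had 36.1 and 32.6 FPKM, and PIP2-6 (AT2G39010) had 2.12 and 1.95 FPKM. PIP2-4 (AT5G60660), mainly a root gene, was not expressed, at 0.104 and 0.0415 FPKM.

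**Figure D2:**
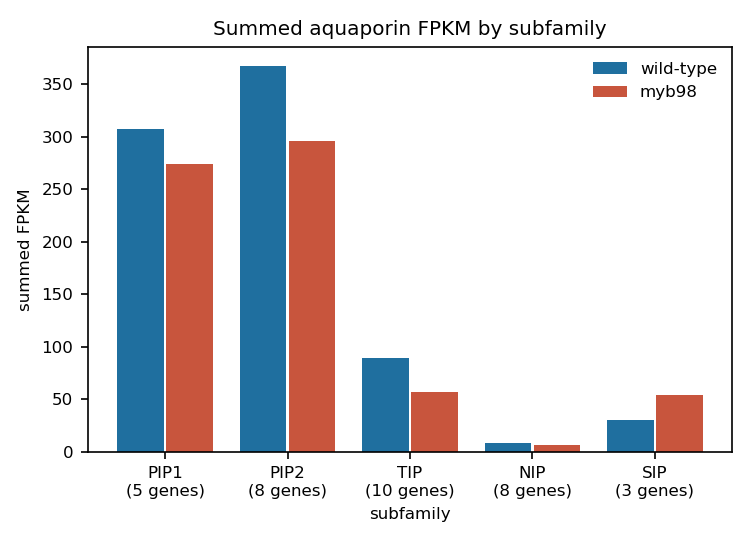
Summed FPKM of each subfamily in the wild-type and myb98 libraries (1 library each, no error bars), with the number of member genes under each pair of bars. PIP2 and PIP1 are the tallest pairs in both libraries, and SIP is the subfamily with the higher bar in the myb98 library (30.2 against 54.4 FPKM).

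Of the vacuolar channels, TIP2-1 was the most abundant. TIP2-1 (AT3G16240), which also conducts ammonia, had 53.1 FPKM in the wild-type and 39.0 FPKM in the myb98 library. TIP1-1 (AT2G36830), a water channel of large vacuoles, had 29.6 and 11.4 FPKM. TIP1-2 (AT3G26520) had 4.60 and 3.87 FPKM and TIP2-2 (AT4G17340) had 1.41 and 2.06 FPKM. Together the 10 TIP genes held 89.2 and 56.4 FPKM, or 11.1% and 8.22% of the family. Exons of TIP2-1 overlap those of AT3G16250 on the opposite strand, which stood at 0.958 and 1.18 FPKM. They also overlap those of AT3G03265, whose level was not examined.

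The other 6 TIP genes were at or near 0. TIP3-1 (AT1G73190) and TIP3-2 (AT1G17810), channels of the protein storage vacuoles of seeds, and TIP1-3 (AT4G01470), a pollen channel, were listed at 0 in both libraries. TIP2-3 (AT5G47450) had 0.0428 and 0.0241 FPKM, and TIP4-1 (AT2G25810) had 0.0332 and 0.0635 FPKM. TIP5-1 (AT3G47440), another pollen channel, had 0.447 FPKM in the wild-type and 0.0296 FPKM in the myb98 library, about 21 and 1 fragments by estimate. Pollen markers were low in both libraries, with 2 of 7 listed at 0 in both and sums of 2.26 and 2.02 FPKM. Exons of TIP5-1, TIP3-1 and TIP3-2 each overlap those of another gene, so their reads are uncertain.

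NIP genes were nearly absent, with 1 exception. NIP1-2 (AT4G18910), known as a transporter of the aluminium and malate complex in roots, had 8.02 FPKM in the wild-type and 5.31 FPKM in the myb98 library. No boric acid NIP was expressed. NIP5-1 (AT4G10380), the root uptake channel, had 0.0240 and 0.0629 FPKM, and NIP6-1 (AT1G80760), which works in shoot nodes, had 0.0258 FPKM and a listed 0. NIP7-1 (AT3G06100), a boric acid channel of the anther, had 0.177 and 0.496 FPKM, about 11 and 27 fragments by estimate, and was the highest of all members under the threshold. The tapetum list, the anther tissue in question, had a maximum of 0.0606 FPKM in the wild-type and 0.239 FPKM in the myb98 library.

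The other NIPs were also under 1 FPKM. NIP2-1 (AT2G34390), a lactic acid channel induced by low oxygen, had 0.336 and 0.202 FPKM. Exons of NIP2-1 and of NIP6-1 overlap those of another gene, so the reads of both are uncertain. NIP1-1 (AT4G19030), which admits arsenite to roots, had 0.0626 FPKM and a listed 0. The pollen channels NIP4-1 (AT5G37810) and NIP4-2 (AT5G37820) had 0.0719 FPKM and a listed 0, and a listed 0 and 0.0572 FPKM. They lie 1989 bases apart on chromosome 5 and share 88.1% of their coding bases. No fold is given for any gene under 1 FPKM in both libraries.

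SIP genes were the only subfamily besides PIP1 with every member expressed. SIP1-1 (AT3G04090) had 14.7 FPKM in the wild-type and 22.5 FPKM in the myb98 library. SIP1-2 (AT5G18290) had 6.48 and 16.6 FPKM, and SIP2-1 (AT3G56950) had 9.02 and 15.2 FPKM. All 3 were higher in the myb98 library, and their sum went from 30.2 FPKM (3.77% of the family) to 54.4 FPKM (7.92%). Exons of SIP2-1 overlap those of AT3G56940 on the opposite strand, an enzyme gene of chlorophyll synthesis with 68.7 and 35.9 FPKM. They also overlap those of AT3G08805, whose level was not examined. The sources used here do not give strandedness, so reads of these overlaps cannot be assigned.

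The myb98 library was compared with the wild-type library as log2((myb98 FPKM + 1)/(wild-type FPKM + 1)), where the pseudocount of 1 understates changes of low genes, and a gene is said to have fallen or risen at a size of 2 or more, which is a rule of size and not a test. PIP2-1 fell, and 19 of the 20 expressed aquaporin genes did not pass. Of these, PIP2-6 and TIP2-2 (2.12 and 1.41 FPKM in the wild-type library) could not have fallen, even at 0 in the myb98 library. The same holds for MYB98 itself, which had 1.35 FPKM in the wild-type and 0.474 FPKM in the myb98 library. Among all expressed genes, 0.712% fell and 0.282% rose, and 0 aquaporin genes rose. The median log2 ratio of the 20 genes was -0.12, beside -0.0039 over all expressed genes (interquartile range -0.28 to 0.29). Of the 20, 15 were lower by any amount in the myb98 library, beside 50.4% of all expressed genes, and 5 were higher, beside 49.6%. Within a 1.5-fold span lay 12 of the 20 aquaporin genes (60.0%), beside 72.4% of all expressed genes.

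PIP2-1 (AT3G53420, chromosome 3, 19803473 to 19805730, minus strand), a plasma membrane water channel of roots and guard cells, had 36.0 FPKM in the wild-type and 7.69 FPKM in the myb98 library. That is 4.68-fold lower, with a log2 ratio of -2.09, close to the limit of the rule, and with a pseudocount of 5 it was -1.69 and no longer passed. By estimate the values rest on about 2713 and 507 fragments, so counting error is small beside the difference, and the error between ovule collections is not known. Among the 10564 genes that reached 5 FPKM in either or both, 0.975% had a lower ratio. In the wild-type library PIP2-1 was level with PIP2-5 (ratio 0.998), and in the myb98 library it stood at 0.236 of PIP2-5.

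The closest relatives of PIP2-1 were lower too. PIP2-2 (AT2G37170, chromosome 2, 15613368 to 15615022, minus strand) had 19.4 FPKM in the wild-type and 9.91 FPKM in the myb98 library, a log2 ratio of -0.91. PIP2-3 (AT2G37180, chromosome 2, 15617635 to 15619155, plus strand), also known as RD28 for its response to desiccation, had 8.62 and 2.94 FPKM, a log2 ratio of -1.29. Neither passed the rule of size. PIP2-2 and PIP2-3 are neighbours 2612 bases apart, with 94.8% identical coding sequence and an exact shared run of 242 nt, so the split between them is uncertain. PIP2-1 is 86.2% identical to PIP2-2 with a longest run of 35 nt. With PIP2-7, the most abundant member, PIP2-1 shares a longer exact run of 49 nt, and how reads of that run were assigned was not examined.

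Their sum depends little on how reads were split among the 3 genes. It was 64.0 FPKM in the wild-type and 20.5 FPKM in the myb98 library, 3.12-fold lower. The other 5 PIP2 genes summed to 303 and 275 FPKM, 1.10-fold lower. Of the 71.2 FPKM by which the PIP2 sum was lower, PIP2-1 to PIP2-3 made up 43.5 FPKM and PIP2-7 made up 23.7 FPKM.

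TIP1-1 was the remaining gene at a log2 ratio of -1 or below. Its 29.6 and 11.4 FPKM gave a 2.60-fold lower value and a log2 ratio of -1.30, which did not pass the rule. Its sister TIP1-2, with 81.7% identical coding sequence, had a ratio of -0.20. At this smaller size 3 of the 20 genes (PIP2-1, TIP1-1 and PIP2-3) were lower, beside 2.74% of all expressed genes, and 1 (SIP1-2) was higher, beside 2.95%. TIP2-1 had a ratio of -0.44, PIP1-2 of -0.49 and NIP1-2 of -0.51.

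**Figure D3:**
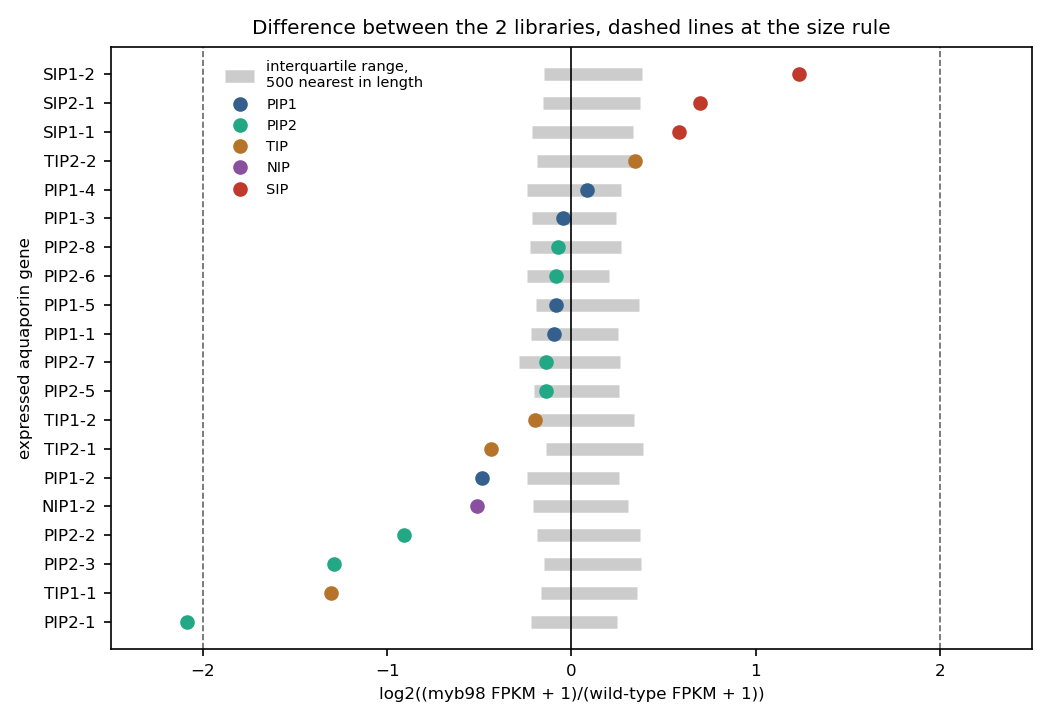
Log2 ratio of the 20 expressed aquaporin genes between the myb98 and wild-type libraries (1 library each), coloured by subfamily, with dashed lines at a size of 2. Grey bars give the interquartile range of the 500 expressed genes nearest in transcript length, and PIP2-1 at -2.09 lies past the left line while SIP1-2 at 1.24 is the highest.

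SIP1-2 had the highest ratio, at 1.24 (2.56-fold higher), and 1.90% of those 10564 genes had a higher one. The ratios of SIP2-1 and SIP1-1 were 0.70 and 0.58. Ratios ran with transcript length in these libraries. The 500 genes nearest in length to SIP1-2 (1195 nt) had a median ratio of 0.13, and those nearest to PIP1-2 (1509 nt) one of 0.03. Set against such medians, SIP1-2, SIP2-1 and SIP1-1 had 1.11, 0.58 and 0.47. On that scale all 20 genes kept their sign, and PIP2-1 had -2.11.

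Promoters were searched because MYB98 is known to act through the sequence GTAACNT. In the 250 bases before the annotated start, on either strand, 5 of the 20 expressed aquaporin genes held GTAACNT (PIP1-3, PIP2-3, PIP2-8, SIP1-2 and SIP2-1), beside 11.6% of the promoters of 16211 expressed genes. Of the 5, PIP2-3 was lower, the SIPs were higher, and PIP1-3 and PIP2-8 had ratios of -0.05 and -0.07. Evening elements (AAATATCT) and G-boxes (CACGTG) were in 0 of the 20, beside 4.87% and 7.39% of all. Heat shock elements (GAANNTTC) were in 2 of 20, PIP2-7 and SIP2-1, beside 9.10%. The promoters of the genes with the lowest and the highest ratio are shown, with any of these motifs in capitals, and that of PIP2-1 (chr3:19805731-19805980, minus strand) held none, while that of SIP1-2 (chr5:6058369-6058618, minus strand) held GTAACNT once.
PIP2-1: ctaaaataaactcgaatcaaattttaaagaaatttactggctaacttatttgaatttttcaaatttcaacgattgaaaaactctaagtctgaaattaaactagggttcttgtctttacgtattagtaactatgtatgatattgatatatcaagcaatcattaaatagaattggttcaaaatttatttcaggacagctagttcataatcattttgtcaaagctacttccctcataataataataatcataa
SIP1-2: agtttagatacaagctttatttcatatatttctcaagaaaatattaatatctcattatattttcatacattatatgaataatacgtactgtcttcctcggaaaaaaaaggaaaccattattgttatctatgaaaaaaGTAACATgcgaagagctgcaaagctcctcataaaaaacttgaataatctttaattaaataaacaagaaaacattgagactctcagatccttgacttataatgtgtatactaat

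Lists of proton pump, PIP traffic, boron export and dehydration response genes were set beside the aquaporins. Among all expressed genes 0.712% fell and 0.282% rose, so a count of 0 in lists this short is near that share. Some expressed list members were so low in the wild-type library that they could not have fallen by the rule, even at 0 in the myb98 library. Proton pumps of the plasma membrane energise solute uptake, and of 8 expressed AHA genes 0 fell and 0 rose (median -0.06). AHA1 had 65.8 FPKM in the wild-type and 54.5 FPKM in the myb98 library, and AHA10, a pump of the seed coat endothelium, had 14.5 and 10.7 FPKM. Of 6 vacuolar proton pump genes 0 fell and 0 rose (median 0.05). The pyrophosphatase AVP1 had 77.0 and 99.4 FPKM, and DET3, a subunit of the vacuolar ATPase, had 24.6 and 35.0 FPKM.

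Among 7 expressed genes for PIP traffic and phosphorylation, 0 fell and 0 rose (median -0.05). For each list in this paragraph, 0 is near the share of all expressed genes (0.712% fell, 0.282% rose). The syntaxins SYP121 and SYP61, which deliver PIP2-7 to the plasma membrane, had 13.0 and 16.7 FPKM and 12.5 and 8.92 FPKM. Of 3 expressed boron exporters 0 passed the rule (median 0.09), with BOR1 at 2.77 and 4.67 FPKM and BOR4 at 1.29 and 1.03 FPKM. At these wild-type levels neither BOR1 nor BOR4 could have fallen by the rule. Of 6 expressed dehydration and abscisic acid response genes 0 passed (median 0.07), with the dehydrin COR47 at 3.72 and 1.46 FPKM and KIN2 at 14.1 and 10.4 FPKM.

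**Figure D4:**
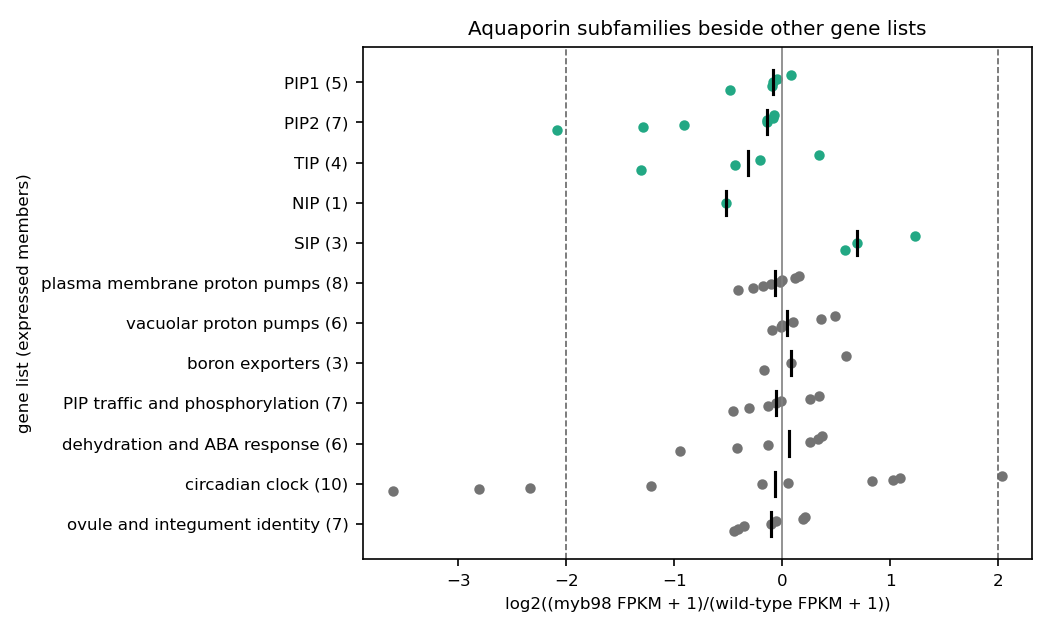
Log2 ratio between the myb98 and wild-type libraries for the expressed members of each aquaporin subfamily (green) and of other gene lists (grey), with the number of genes in parentheses, a black tick at each median and dashed lines at a size of 2. Clock genes spread widest, from -3.60 to 2.03, and the proton pump lists stay between -0.41 and 0.49.

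Clock genes differed between the libraries as well. Of 10 expressed members 3 fell and 1 rose (median -0.06), beside 0.712% and 0.282% of all expressed genes, and 6 did not pass the rule. The morning regulators LHY and CCA1 had 23.0 and 8.19 FPKM in wild-type ovules against 0.977 and 0.314 FPKM in myb98 ovules. The other gene that fell was PRR7 (21.6 and 3.48 FPKM), and the gene that rose was the evening gene ELF4 (a listed 0 and 3.10 FPKM), both named here after their values were seen. Of the members that did not pass, TOC1 had 8.53 and 16.0 FPKM and LUX had 2.89 and 6.95 FPKM. PRR5 had 0.578 and 2.36 FPKM, and PRR9 had 1.51 and 0.0798 FPKM. PRR9 was 18.9-fold lower in the myb98 library, but from its wild-type level it could not have fallen by the rule. GI (5.57 and 5.83 FPKM) and ELF3 (8.48 and 7.34 FPKM) differed little. All of these were also named after their values were seen. The clock genes and PIP2-1, PIP2-2, PIP2-3, TIP1-1 and the SIPs differed between the same 2 libraries. A link between them cannot be shown from 1 library per genotype, and a part of the clock in the aquaporin values was not tested. In RNA from whole ovules, fewer cells of a type and less RNA per cell cannot be told apart. The 7 ovule identity genes had ratios between -0.45 and 0.21, with SHP1 at 40.1 and 29.1 FPKM and BEL1 at 4.94 and 3.47 FPKM.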

How the data were processed

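The deposited table holds FPKM values, 1 column per library, made by the authors, and no read counts were used. The submitters' processing notes name TopHat2 2.0.14, Cuffdiff 2.2.1 and TAIR10, with no role or options, and the unit was read from the values. Annotation version, strandedness and scaling between libraries were not given in the sources used here. A listed 0 can be a failed estimate.

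Of 35548 identifiers, 33557 had values and 32802 of these matched a locus of RefSeq TAIR10.1, which supplied coordinates, transcript lengths and sequences. Members were matched by locus. The value of 1 fragment was estimated from the lowest values of genes with a lone transcript of at least 1500 nt, as 0.0209 (wild-type) and 0.0238 (myb98) FPKM for 1 kilobase, so fragment numbers are approximate and longest annotated transcripts were used.

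With 1 library per genotype there is no test, p-value or standard error. Ratios used a pseudocount of 1 FPKM, an expression threshold of 1 FPKM and a size rule of log2 2 (4-fold on that scale). Identity was measured by global alignment of coding sequences (Biopython 1.88). The calculation was tested on simulated data with known changes, a length trend and counting error. Those data held no error between ovule collections, so they cannot show how often the size rule errs here. All members are named, with the 2 expressed genes of each other list that had the largest ratio in size. The members and lists were chosen with earlier results of these data known.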

Additional observations from a re-analysis of the deposited data

How the results depend on the processing

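The count of aquaporin genes that fell was 1 under thresholds of 0.5 and 5 FPKM, with no filter, with a pseudocount of 0.1, on a median-centred scale and against genes of the same transcript length. It was 0 with a pseudocount of 5, and at a size of log2 1 it was 3, with 1 gene that rose. The number expressed was 17 at 5 FPKM and 31 with any value above 0. The median log2 ratio was -0.14 at 5 FPKM, -0.09 with no filter, -0.13 and -0.10 with pseudocounts of 0.1 and 5, -0.14 on the median-centred scale and -0.15 against genes of the same length. It was -0.12 without the 2 expressed genes whose exons overlap another gene, an alternative chosen after seeing the data. None of the 20 ratios changed sign under the pseudocounts or either scale. Without PIP2-2 and PIP2-3, the members 90% or more identical to another, the wild-type and myb98 shares were 39.7% and 40.6% for PIP1, 43.8% and 42.0% for PIP2, 11.5% and 8.38% for TIP, 1.13% and 0.910% for NIP, and 3.90% and 8.08% for SIP. No paired analysis was possible because each genotype has 1 library.

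Depth limits the members under 1 FPKM, which rest on at most 27 fragments by estimate, while each expressed member rests on at least 91. The error between ovule collections is not known.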
